A study of Homo sapiens with 6 samples.

Results

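Antisense long noncoding RNAs are transcribed from the strand opposite a named gene, and their symbols join the name of that gene to -AS and a digit. Of the 23013 genes in the deposited ORC1 RIP-seq table, 418 carried such a symbol, with OIP5-AS1 left out. The sense gene, named before -AS, was in the table for 395 of the 418. Testing required a mean of 10 or more normalised counts in the 6 libraries, which 229 antisense RNAs met and 189 missed.

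The study asked which nuclear RNAs are recovered with ORC1, the large subunit of the origin recognition complex. All libraries came from nuclei of untreated HCT116 cells, an established human colorectal cancer line. They were 3 inputs, RNA of the nuclear lysate without antibody, and 3 immunoprecipitates of ORC1 (ORC1 IP). An input and an ORC1 IP share a RIP replicate number in the labels, which do not say whether the replicates came from separate cultures, so p-values measure only the spread between these samples.

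Some antisense RNAs start next to the promoter of their sense gene and run away from it, and others lie inside the sense gene. Several are known to stay in the nucleus and to act on chromatin or transcription where they are made, while others are host transcripts of small nucleolar RNAs or have no known role. ORC1 binds replication origins, where it helps to load the MCM helicase, and it also binds RNA.

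By GENCODE v44 (GRCh38), matched on the Ensembl identifier, 409 of the 418 were annotated: 397 as lncRNA, 7 as protein coding, 4 as transcribed unitary pseudogenes and 1 as a transcribed unprocessed pseudogene. The annotation now gives another symbol to 74 of them, and 46 of these end in -DT, for divergent transcript. In 166 pairs the starts of the antisense RNA and the sense gene lay within 2000 bases on opposite strands (head-to-head), 215 pairs overlapped in another way, 3 did not overlap and 34 could not be classified. The median antisense RNA had 7.47% of its exon bases under exons of the other strand, and 102 had none. The kit was stranded, but the sources used here do not give whether the counting used the strand, so reads of an antisense RNA and of its sense gene may not be fully separated.

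Because the study looked at tandem GAA repeats in its RNAs, the longest transcript of each antisense RNA was searched for GAAGAAGAA on the RNA strand only. Among tested antisense RNAs with a transcript, 14 of 224 (6.25%) held it, against 17.3% of the sense genes and 12.9% of all 16062 tested genes with a transcript. At a mean count of 100 or more the share was 17.8% in antisense RNAs and 14.9% in all genes, and at 10 to 100 it was 3.35% and 8.13%. The median longest transcript had 2790.5 bases in antisense RNAs, 4376 in sense genes and 3283 in all genes. The part of level and length in these shares was not tested. The stretches of 6 of the 14 are shown, picked by their log2 fold changes: the first 4 had the highest of the 14, and the last 2 were the only ones below 0. Of these 6 only C1RL-AS1 passed in limma (adjusted p under 0.05), so the choice is a description. Each is written 5′ to 3′ from the GENCODE v44 transcript, with the longest GAA run in capitals and up to 15 bases on each side.
C1RL-AS1: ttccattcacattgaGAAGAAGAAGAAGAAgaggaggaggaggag
USP46-AS1: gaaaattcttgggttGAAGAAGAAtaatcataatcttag
FBXL19-AS1: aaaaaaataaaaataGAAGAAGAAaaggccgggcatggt
THAP9-AS1: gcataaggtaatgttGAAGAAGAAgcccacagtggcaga
DLGAP1-AS1: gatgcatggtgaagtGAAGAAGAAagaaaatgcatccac
HOXB-AS4: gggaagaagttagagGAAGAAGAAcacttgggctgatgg

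On GRCh38 the C1RL-AS1 stretch crosses an exon junction on the plus strand, from chr12:7118662-7118677 to chr12:7118899-7118927. The others lie within 1 exon, at chr4:52661514-52661552 (plus, USP46-AS1), chr16:30919588-30919626 (minus, FBXL19-AS1), chr4:82894592-82894630 (minus, THAP9-AS1), chr18:3597742-3597780 (plus, DLGAP1-AS1) and chr17:48628804-48628842 (plus, HOXB-AS4). C1RL-AS1 had 5 GAA units in a row, and the other 13 antisense RNAs had 3 in their longest run.

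Recovered reads on genes numbered 13703033 to 17248924 in inputs against 25134156 to 36008733 in ORC1 IPs. ORC1 IP 2 stood apart from the other libraries. Antisense RNAs took 0.154%, 0.139% and 0.143% of the reads in inputs 1, 2 and 3. Their shares were 0.0746%, 0.308% and 0.0761% in the corresponding ORC1 IPs. The nuclear RNAs MALAT1 and NEAT1 summed to a normalised count of 120924 in ORC1 IP 2 and 12106 to 39471 in the other 5 libraries, while the mRNAs GAPDH and ACTB summed to 26097 there and to 59529 to 127168 elsewhere. The first sum was mostly MALAT1 (116695 in ORC1 IP 2). NEAT1 was at 4229 in ORC1 IP 2, close to its 2391 to 3838 in inputs, and at 1505 and 1462 in ORC1 IPs 1 and 3. Of 8 colorectal epithelial markers 7 were in the table, and their sum was 47785 to 138549 in inputs, 145253 and 68674 in ORC1 IPs 1 and 3 and 16799 in ORC1 IP 2, with VIL1 at 6.30 or less in every library. Of 8 markers of other cells, COL1A1, VWF and ALB were in the table. They summed to 169 to 319 in inputs against 442 to 826 in ORC1 IPs. This sum was mostly COL1A1, with means of 232 in inputs and 563 in ORC1 IPs (adjusted p in limma = 0.0854). VWF had means of 19.1 and 20.1, and ALB was at 0 in inputs 2 and 3 and ORC1 IP 1. No library of a control antibody was analysed here. The part of these differences in the results was not tested, so results are given with and without ORC1 IP 2.

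The median antisense RNA had about the same level in ORC1 IP as in input. The median log2 fold change (ORC1 IP over input, on the log2(normalised count + 1) scale) of the 229 was -0.02, with quartiles of -0.40 and 0.41, and 108 were above 0. This median was -0.39 without ORC1 IP 2, 0.15 without ORC1 IP 1 and 0.17 without ORC1 IP 3. Over all 16513 genes tested the median was 0.01, and over the 371 sense genes tested it was 0.19. By limma with adjustment over all genes, 1 antisense RNA was higher in ORC1 IP (0.437%) where 2.28% of all genes were, and 0 were lower where 1.42% of all genes were. At an unadjusted p under 0.05 there were 15 (6.55%, against 21.6% of all genes). At a mean of 10 to 100, limma called 60 of 5107 genes higher and 66 lower, and 0 of 184 antisense RNAs in either direction. The unadjusted p was under 0.05 for 869 of these genes and 10 of these antisense RNAs. At a mean of 100 or more, 316 of 11406 genes were called higher and 168 lower, against 1 and 0 of 45 antisense RNAs. The part of level in these shares was not tested. Of the 229, 8 had an input mean under 10 and 10 an ORC1 IP mean under 10, so they passed the filter only through the group where they were high. In bulk RNA of this kind, more molecules of an RNA bound to ORC1 and fewer molecules of it in the input cannot be told apart.

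edgeR on the recovered reads called 1 antisense RNA higher (2.57% of all genes) and 0 lower (1.31%). DESeq2 called 4 higher, C1RL-AS1, FBXL19-AS1, NPPA-AS1 and SH3BP5-AS1, where 7.67% of all genes were, and NPPA-AS1 passed the filter only through its ORC1 IP values. It called 1 lower, GAS5-AS1, where 4.35% were. Counted without a test, all 3 ORC1 IP values lay above the 3 inputs for 13 antisense RNAs (5.68%, against 12.7% of all genes) and below them for another 13 (5.68%, against 13.5%). At a mean of 10 to 100 they lay above for 8 of 184 antisense RNAs and 583 of 5107 genes, and below for 12 and 558. Log2 fold changes of the antisense RNAs ran from -1.89 (MPRIP-AS1) to 1.91 (NPPA-AS1), with 11 above 1 and 21 below -1. Both RNAs at the ends passed the filter only through 1 group. Over all genes tested the range was -7.43 to 4.51. The share of all genes above 1 or below -1 was not counted, so the 11 and 21 are a description.

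The near-zero median stood over opposite values in the replicates. Taken by RIP replicate number, the median log2 ratio of ORC1 IP to input was -0.42, 0.68 and -0.35 for antisense RNAs in replicates 1, 2 and 3. In replicates 1 and 2 the input and the ORC1 IP deviated from their groups in opposite ways (correlations of -0.322 and -0.240), unlike in replicate 3 (0.215). The sample titles give the same pairs as the labels. Other pairings were not tried, so whether the numbers pair the right libraries was not tested. Every value by replicate rests on these numbers. Intergenic RNAs with LINC symbols (90 tested) gave -0.42, 0.66 and -0.19, so the same split was seen outside antisense RNAs. Sense genes gave 0.17, -0.02 and 0.39, and all genes stayed between -0.01 and 0.05. All genes with a mean of 10 to 100 gave -0.11, 0.35 and -0.13, the same signs as antisense RNAs. The highest of the 6 values was that of ORC1 IP 2 for 130 antisense RNAs (56.8%), for 45 of the 90 LINC RNAs, 20.2% of the sense genes and 22.9% of all genes. Genes with a mean of 10 to 100, where most antisense RNAs lie, had it there in 34.5% of cases.

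**Figure D1:**
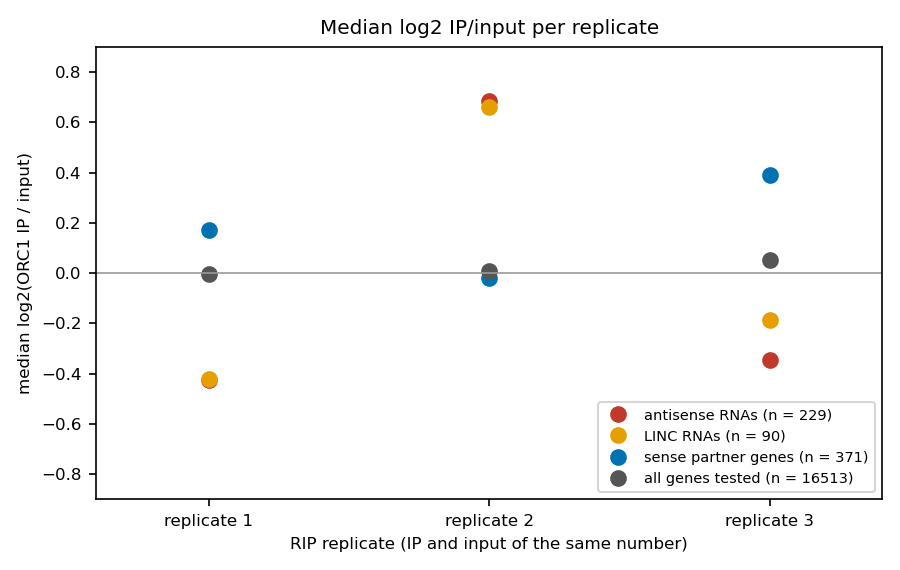
Median log2 ratio of ORC1 IP to input (vertical axis) in each RIP replicate (horizontal axis), as 1 point for each gene group. Antisense RNAs and LINC RNAs lay below 0 in replicates 1 and 3 and at 0.68 and 0.66 in replicate 2. All genes stayed between -0.01 and 0.05, but those with a mean of 10 to 100 (not plotted) were at -0.11, 0.35 and -0.13.

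**Figure D2:**
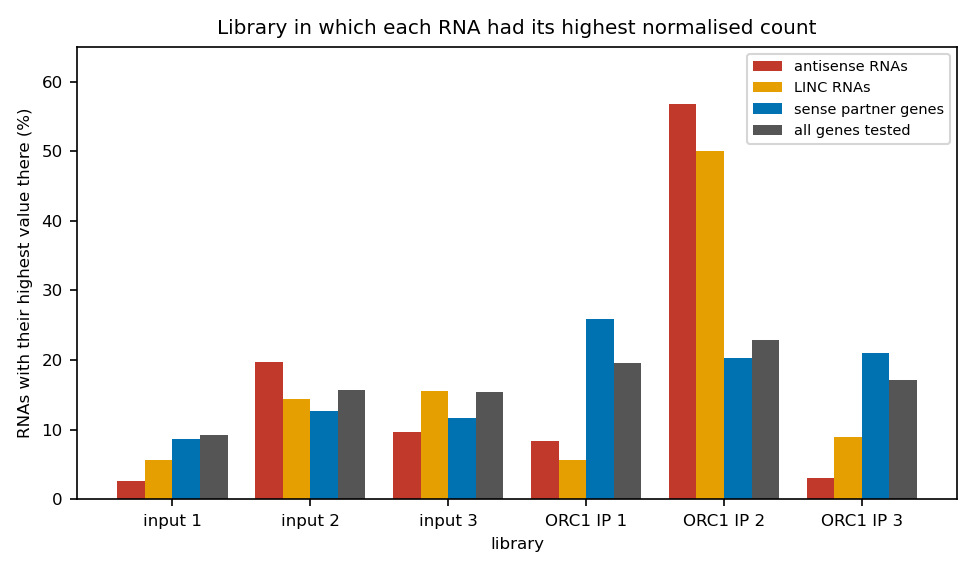
Share of each gene group (bars, in percent from 0) whose highest normalised count was in the library on the horizontal axis. ORC1 IP 2 held the highest value of 56.8% of the antisense RNAs and 22.9% of all genes tested.

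Without ORC1 IP 2 the median of the antisense RNAs was -0.39, against 0.02 for all genes, 0.28 for sense genes and -0.31 for LINC RNAs. limma then called 1 antisense RNA higher, C1RL-AS1, where 11.9% of all genes were, and 6 lower (2.62%), where 6.38% of all genes were. At a mean of 10 to 100 it called 203 of 5107 genes higher and 233 lower, against 0 and 5 of 184 antisense RNAs. The 6 antisense RNAs called lower were FAM211A-AS1, PAN3-AS1, CAPN10-AS1, UBAC2-AS1, ZBED5-AS1 and ZNF674-AS1. For the last of these ORC1 IP 2 had the highest value of all: ZNF674-AS1 had normalised counts of 79.1, 77.2 and 72.5 in inputs against 38.0, 138 and 17.1 in ORC1 IPs.

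C1RL-AS1 was the antisense RNA that passed in limma with all libraries. It runs opposite C1RL, which encodes a serine protease related to complement C1r, at chr12:7108052-7122524 on the plus strand (GRCh38). Its normalised counts were 113, 191 and 139 in inputs against 548, 398 and 375 in ORC1 IPs, so every ORC1 IP lay well above every input. The log2 fold change was 1.58 ± 0.37 (SE, n = 3 and 3; adjusted p in limma = 0.0387). C1RL itself had 355, 170 and 223 in inputs against 219, 448 and 345 in ORC1 IPs, groups that overlapped, and a log2 fold change of 0.44 ± 0.41 (SE; adjusted p in limma = 0.579). In C1RL-AS1, 28.9% of exon bases lie under exons of the other strand, but only 3.34% under exons of C1RL itself. The rest lie under exons of other genes, whose counts were not examined.

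The call of C1RL-AS1 was close to the threshold. With the replicate number as a block the adjusted p was 0.0581 in limma and 0.0602 in edgeR. Leaving out any 1 library other than ORC1 IP 2 gave limma adjusted p of 0.0824 (input 1), 0.0992 (input 2), 0.234 (input 3), 0.102 (ORC1 IP 1) and 0.0917 (ORC1 IP 3), and leaving out ORC1 IP 2 gave 0.00953. The log2 fold change stayed between 1.41 and 1.78 in these 6 fits.

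FBXL19-AS1 followed among those whose groups did not overlap. Its sense gene FBXL19 encodes an F-box protein that binds CpG islands, and the starts of both are 214 bases apart. FBXL19-AS1 had 111, 164 and 104 in inputs against 603, 316 and 186 in ORC1 IPs, with ORC1 IP 1 far above the rest. Its log2 fold change of 1.40 ± 0.46 (SE) missed the threshold in limma (adjusted p = 0.101) and passed in DESeq2 (0.0279), while FBXL19 was at 0.04 ± 0.56 (SE).

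SH3BP5-AS1, opposite the gene of a Rab11 exchange factor, had 58.0, 58.3 and 32.8 in inputs against 111, 248 and 71.5 in ORC1 IPs. All 3 ORC1 IPs were higher, ORC1 IP 2 most of all, and the log2 fold change of 1.36 ± 0.52 (SE) missed the threshold in limma (adjusted p = 0.149). DESeq2 put it just inside (0.0496). OR2A1-AS1, opposite an olfactory receptor gene, had a log2 fold change of 1.17 ± 0.52, HNRNPU-AS1 0.96 ± 0.52, UBL7-AS1 0.90 ± 0.43, PTOV1-AS1 0.82 ± 0.35 and FOXD2-AS1 0.67 ± 0.38 (SE). These 5 had every ORC1 IP above every input and limma adjusted p of 0.19 to 0.332. HNRNPU encodes a nuclear matrix protein that binds RNA, UBL7 a ubiquitin-like protein and FOXD2 a forkhead transcription factor.

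NPPA-AS1 had the largest positive log2 fold change, and is named because of that value, as a description. It passed the filter only through its ORC1 IPs, since its input mean was 5.56. The gene opposite it encodes atrial natriuretic peptide. Its normalised counts were 8.44, 4.73 and 3.51 in inputs against 24.2, 54.6 and 8.20 in ORC1 IPs, so ORC1 IP 3 fell within the inputs. The log2 fold change was 1.91 ± 0.73 (SE), from 140 reads in all.

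**Figure D3:**
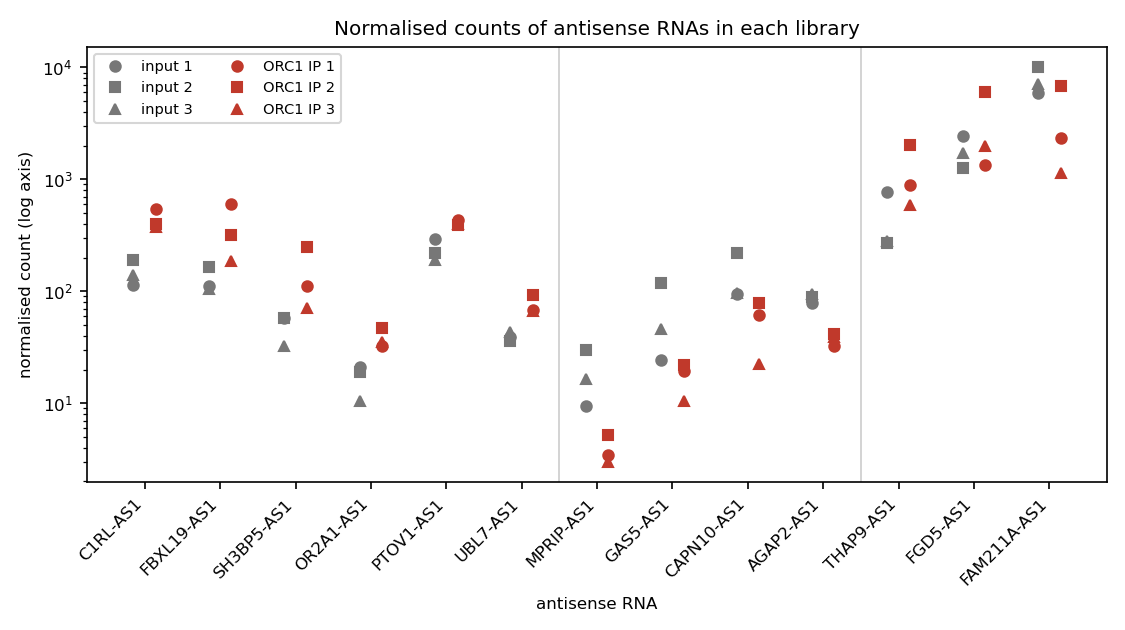
Normalised counts (log axis) of 13 antisense RNAs in the 3 inputs (grey) and 3 ORC1 IPs (red), with the symbol shape giving the RIP replicate. The first 6 had every ORC1 IP above every input, the next 4 every ORC1 IP below, and the last 3 are abundant RNAs whose groups overlapped.

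Among antisense RNAs with every ORC1 IP below every input, MPRIP-AS1 had the lowest log2 fold change, given here as a description, since with an ORC1 IP mean of 3.89 it passed the filter only through its inputs. It lies inside MPRIP, which encodes a scaffold that ties myosin phosphatase to RhoA, and shares no exon bases with it. MPRIP-AS1 had 9.5, 29.9 and 16.4 in inputs against 3.45, 5.23 and 2.98 in ORC1 IPs, 58 reads in all. Its log2 fold change was -1.89 ± 0.65 (SE). MPRIP had 3910.3, 4988 and 4793 in inputs against 17242, 3013 and 14570 in ORC1 IPs, high in ORC1 IPs 1 and 3 only.

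GAS5-AS1 lies opposite GAS5, a growth arrest noncoding RNA that hosts small nucleolar RNAs. It had 24.3, 120 and 45.6 in inputs against 19.6, 22.1 and 10.4 in ORC1 IPs, where input 2 was highest by far. GAS5-AS1 thus had a log2 fold change of -1.57 ± 0.63 (SE; adjusted p in limma = 0.166, DESeq2 adjusted p = 0.0399), while GAS5 itself was at -0.38 ± 0.62 (SE).

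CAPN10-AS1 starts 35 bases from CAPN10, a calpain protease gene, and now bears the name CAPN10-DT. It had 95.0, 221 and 97.1 in inputs against 61.0, 77.8 and 22.4 in ORC1 IPs, and a log2 fold change of -1.40 ± 0.55 (SE; adjusted p in limma = 0.16, and 0.0343 without ORC1 IP 2). PAN3-AS1, opposite a subunit of the PAN2-PAN3 deadenylase, was at -1.40 ± 0.62 (SE; adjusted p in limma = 0.212, and 0.0489 without ORC1 IP 2). AGAP2-AS1 had the tightest values of this group, 78.1, 88.3 and 93.6 in inputs against 32.2, 41.8 and 38.8 in ORC1 IPs, for a log2 fold change of -1.19 ± 0.43 (SE; adjusted p in limma = 0.129). In AGAP2-AS1, 57.7% of exon bases lie under exons of the other strand, and 91.9% under exons of other annotation on its own strand. Stranded counting may not separate reads of the latter from those of AGAP2-AS1.

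GSN-AS1 (opposite the gelsolin gene) and PVRL3-AS1 (opposite a nectin gene) had log2 fold changes of -1.46 ± 0.60 and -1.35 ± 0.72 (SE). GSN-AS1 missed the threshold in limma (adjusted p = 0.175), PVRL3-AS1 passed the filter only through its inputs, and no library held a normalised count above 44.1 for either.

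The 6 most abundant antisense RNAs had log2 fold changes of either sign, and none passed in limma. FAM211A-AS1, now named SNHG29 as a host of small nucleolar RNAs, had 5929.9, 10138 and 7066 in inputs against 2348, 6777 and 1135 in ORC1 IPs. ORC1 IP 2 lay within the inputs, and ORC1 IPs 1 and 3 far below them. With all libraries the log2 fold change was -1.52 ± 0.61 (SE; adjusted p in limma = 0.168), and -2.20 without ORC1 IP 2 (adjusted p = 0.00235). Without FAM211A-AS1, antisense RNAs took 0.0925% to 0.121% of reads in inputs against 0.0668%, 0.261% and 0.0718% in ORC1 IPs 1, 2 and 3.

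FGD5-AS1 had 2431, 1261 and 1735 in inputs against 1334, 6002 and 1973 in ORC1 IPs, with the excess in ORC1 IP 2 alone. Its log2 fold change was 0.52 ± 0.53 (SE; adjusted p in limma = 0.615), and -0.11 without ORC1 IP 2. THAP9-AS1, which starts 276 bases from the gene of a transposase-like protein, had 770.2, 269 and 282 in inputs against 895, 2015 and 587 in ORC1 IPs. Each ORC1 IP was above its own input, but the groups overlapped through input 1, and the log2 fold change of 1.39 ± 0.51 (SE) missed the threshold in limma (adjusted p = 0.139). FAM83H-AS1, BAIAP2-AS1 and PAX8-AS1 had log2 fold changes of 0.08 ± 0.36, 0.54 ± 0.43 and 0.21 ± 0.34 (SE), with overlapping groups.

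Antisense RNAs opposite genes of replication and the nuclear envelope did not pass the test. DDX11-AS1 (opposite a DNA helicase gene) was at 0.42 ± 0.57, MCM3AP-AS1 (opposite the gene of an MCM3-binding protein) at 0.49 ± 0.46 and TMPO-AS1 (opposite the gene of a lamina-associated protein) at -0.50 ± 0.50 (log2 fold change, SE). Their limma adjusted p ran from 0.578 to 0.723. TMPO-AS1 had 227, 153 and 153 in inputs against 95.6, 275 and 70.1 in ORC1 IPs, which spanned the inputs on both sides.

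The same held for antisense RNAs known from other settings. CDKN2B-AS1, also called ANRIL and known for silencing at its own locus, had 25.3, 14.2 and 12.9 in inputs against 15, 56.9 and 23.8 in ORC1 IPs, groups that overlapped, and a log2 fold change of 0.68 ± 0.61 (SE; adjusted p in limma = 0.558). VPS9D1-AS1 had every ORC1 IP above every input at 0.59 ± 0.36, GABPB1-AS1 was at 0.43 ± 0.41, and HOXA-AS2, EPB41L4A-AS1, ZEB1-AS1, TTN-AS1, SBF2-AS1 and MAPKAPK5-AS1 lay between -0.38 and -0.05 (log2 fold change). Their limma adjusted p ran from 0.361 to 0.963. AFAP1-AS1, EGFR-AS1 and HIF1A-AS2 were too low to test, and the highest count of any of them in a library was 11.7.

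An antisense RNA and its sense gene were then compared within each library, which removes the scaling between libraries. In 209 pairs both were tested. The median difference in log2 fold change, antisense minus sense, was -0.31, with 87 pairs above 0 and 122 below. It was -0.66 without ORC1 IP 2, -0.08 without ORC1 IP 1 and -0.03 without ORC1 IP 3, so its size rested on which ORC1 IPs were kept. By replicate the median difference was -0.51, 0.54 and -0.66, so its sign turned in replicate 2. Across the 209 pairs the log2 fold changes of antisense RNA and sense gene had a Spearman rho of 0.02 and a Pearson r of 0.05, and 101 pairs shared a sign. Pairs come from the same 6 libraries and genes are not independent replicates, so these are descriptions.

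**Figure D4:**
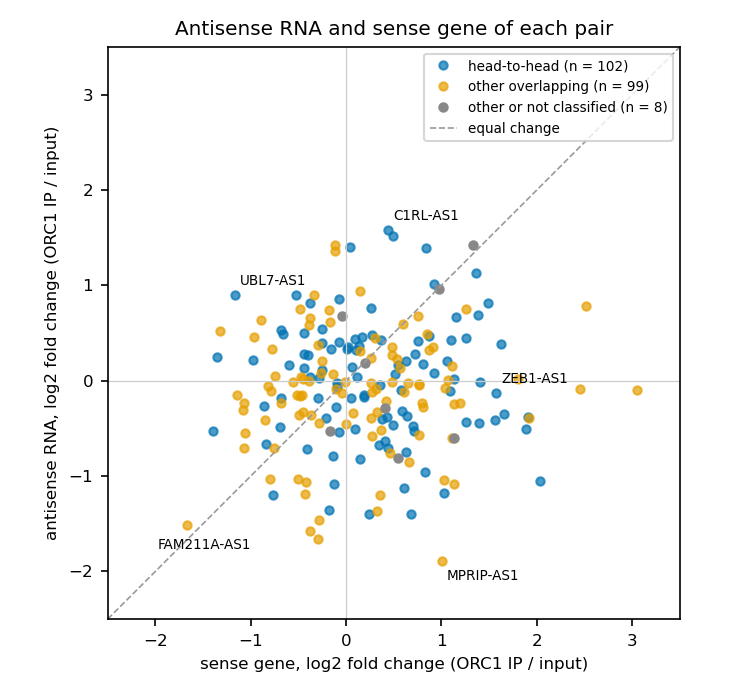
Log2 fold change (ORC1 IP over input) of the sense gene (horizontal axis) and of its antisense RNA (vertical axis) for 209 pairs, 1 point a pair, coloured by layout. The points show no common direction (Spearman rho 0.02), and sense genes reach above 3 where no antisense RNA does.

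The log2 ratio of antisense RNA to sense gene was higher in every ORC1 IP than in every input for 12 of the 209 pairs and lower for 21. Of the 30 named pairs, 9 were among these. The share over other pairs of genes was not counted. Among all genes tested, 12.7% had every ORC1 IP value above every input and 13.5% below. Those are values of single genes and not ratios, so the counts of pairs are a description. Most of the 9 were named because the values of the antisense RNA itself did not overlap between groups, so their ratios are a description. UBL7-AS1 had the largest positive difference among them: its log2 ratios to UBL7 were -4.54, -4.82 and -4.91 in inputs and -2.58, -2.44 and -3.05 in ORC1 IPs, a difference of 2.07. UBL7 had 932, 1053 and 1330.4 in inputs against 412, 502 and 557 in ORC1 IPs, all lower, at -1.17 ± 0.34 (SE; adjusted p in limma = 0.071). The difference in log2 ratio was 1.20 for PTOV1-AS1 and 0.72 for FOXD2-AS1.

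For the remaining 6 of the 9, the ratio was lower in every ORC1 IP than in every input. MPRIP-AS1 against MPRIP had log2 ratios of -8.54, -7.33 and -8.11 in inputs and -11.92, -8.92 and -11.84 in ORC1 IPs, a difference of -2.90. The difference was -2.08 for PAN3-AS1, -1.70 for ZEB1-AS1, -1.63 for CAPN10-AS1, -0.75 for AGAP2-AS1 and -0.63 for TTN-AS1. ZEB1-AS1 and TTN-AS1 were named from a list, but are given here because their ratios did not overlap between groups. That fixes their two-sided exact permutation p at 0.1, the smallest that 3 against 3 libraries allow, so the p adds nothing. ZEB1, a transcription factor of the epithelial to mesenchymal transition, was itself at 1.58 ± 0.52 (SE; adjusted p in limma = 0.102) and ZEB1-AS1 at -0.13 ± 0.68 (SE).

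In 6 of the 209 pairs the sense gene passed in limma, each time higher in ORC1 IP, while its antisense RNA did not. That is 2.87%, and 9 of the 371 sense genes tested (2.43%) were called higher, both near the 2.28% of all genes. The 6 pairs are named because of the calls of their sense genes, so a lower ratio of antisense RNA to sense gene in ORC1 IP follows from the choice and is a description. KTN1, which encodes kinectin, had 3669, 927 and 783 in inputs against 13931, 9044 and 11935 in ORC1 IPs, a log2 fold change of 3.05 ± 0.58 (SE; adjusted p in limma = 0.0186). KTN1-AS1 had 135, 106 and 86.6 in inputs against 70.2, 165 and 86.5 in ORC1 IPs, groups that overlapped, at -0.10 ± 0.45 (SE). The log2 ratio of KTN1-AS1 to KTN1 was -4.75, -3.12 and -3.16 in inputs and -7.61, -5.77 and -7.09 in ORC1 IPs.

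KMT2E, a chromatin reader of the MLL family, was at 2.45 ± 0.46 (adjusted p in limma = 0.0174) and KMT2E-AS1 at -0.09 ± 0.60. PAXBP1 was at 2.51 ± 0.43 (0.0116) and PAXBP1-AS1 at 0.78 ± 0.66. SETD5, a SET domain protein, was at 1.89 ± 0.46 (0.0455) and SETD5-AS1 at -0.51 ± 0.64. SMC5, of the SMC5/6 complex that guards genome stability, was at 1.91 ± 0.47 (0.0461) and SMC5-AS1 at -0.38 ± 0.52. WWC2 was at 1.56 ± 0.35 (0.035) and WWC2-AS2 at -0.41 ± 0.58 (log2 fold changes with SE, limma adjusted p of the sense gene in brackets). The antisense RNA was below 0 in 5 of the 6 pairs. Each of the 6 sense genes also passed in limma without ORC1 IP 2 (adjusted p = 0.00146 to 0.0117).

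By layout, the 102 head-to-head antisense RNAs tested had a median log2 fold change of 0.04, the 106 that overlapped otherwise -0.09, the 18 not classified 0.26 and the 3 that did not overlap -0.29. The median difference from the sense gene was -0.35 in 102 head-to-head pairs and -0.21 in 99 that overlapped otherwise. By replicate it was -0.84, 0.65 and -0.84 in the head-to-head pairs against -0.23, 0.45 and -0.56 in the others. It was also -0.21 in the 127 pairs with under 10% of the antisense exon bases under exons of the other strand. Differences between layouts were not tested.

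Medians also differed between levels. The 45 antisense RNAs with a mean of at least 100 had a median log2 fold change of 0.16, with 29 above 0, and the 184 between 10 and 100 one of -0.09, with 79 above 0. Without ORC1 IP 2 these medians were -0.10 and -0.46. The log2 fold change had a Spearman rho of 0.22 with the length of the longest transcript across 224 antisense RNAs, and of 0.34 across 16062 genes. With GC content it had a rho of -0.02 across the antisense RNAs and -0.18 across all genes.

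Of the 14 antisense RNAs with GAAGAAGAA, 12 had a log2 fold change above 0, and their median was 0.55, against -0.06 for the 210 without it. By replicate the median of the 14 was -0.50, 1.28 and 0.24, and that of the others -0.42, 0.62 and -0.47. Without ORC1 IP 2 the medians were 0.17 and -0.44. The transcripts of the 14 had a median length of 3013 bases and those of the others 2762, and the 14 were more abundant, with a median mean count of 155 against 39.4. The part of length and level in this difference was not tested. USP46-AS1, second among the 14 at 1.52 ± 0.85 (SE; adjusted p in limma = 0.329), had 52.8, 3.15 and 17.6 in inputs against 24.2, 106 and 35.0 in ORC1 IPs, which overlapped widely. DLGAP1-AS1 and HOXB-AS4, the 2 below 0, were at -0.19 ± 0.52 and -0.22 ± 0.50 (SE).

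The 189 antisense RNAs below the mean of 10 had 11 to 79 reads over the 6 libraries, with a median of 29, against a median of 275 for those tested. Every ORC1 IP was above every input for 16 of them (8.47%, against 7.92% of all 6500 genes below that mean) and below for 11 (5.82%, against 8.77%). CERS6-AS1, EPHA1-AS1, HYI-AS1 and LMLN-AS1 had 0 reads in every input and at least 1 read in every ORC1 IP, and none had 0 in every ORC1 IP. The share of all genes below that mean with 0 reads in every input was not counted. HYI-AS1 had normalised counts of 5.76, 4.64 and 8.20 in ORC1 IPs, from 5, 8 and 11 reads. Against a floor of 3 reads per input library its mean was at least 1.63-fold higher in ORC1 IP, a bound that covers counting error only.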

How the data were processed

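ORC1 native RIP-seq was analysed in 3 inputs and 3 ORC1 IPs of nuclei of HCT116 cells. According to the methods and the submitters' processing notes, RNA was treated with DNase, libraries were made with a stranded total RNA kit, reads were trimmed (Trimmomatic), aligned to hg19 (STAR), counted per gene (featureCounts) and compared in DESeq2. The deposited values are a signal computed by the authors: the counts of each library over its DESeq2 size factor. They were whole multiples of 1 read (tolerance 0.001) for 100% of values in each library, so reads were recovered. The authors' columns of log2 fold changes, standard errors, Wald statistics and p-values were not used.

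Genes averaging 10 or more normalised counts were tested on log2(normalised count + 1) with limma 3.58.1 (R 4.3.3, intensity trend, no block, 3 against 3) and Benjamini-Hochberg adjustment over all 16513 genes, with a threshold of 0.05. The test was checked on simulated counts with the same dispersion for every gene and no outlying library. That check does not cover a library such as ORC1 IP 2. Fold changes on this scale understate changes of low genes. edgeR 4.0.16 and DESeq2 1.42.0 were run on recovered reads as alternatives, as were a pseudocount of 0.5 or 5, a filter at 50 or none, total count, TMM and upper quartile scaling, limma without trend, a replicate block, and leaving out each library. A restriction to antisense RNAs with under 10% of exon bases under exons of the other strand was added after seeing the data. The labels pair inputs and IPs by RIP replicate number. Across genes, an input and an ORC1 IP of the same number deviated from their groups with correlations of -0.322, -0.240 and 0.215. Differences in the ratio of antisense RNA to sense gene were tested with two-sided exact permutation tests over every split of the libraries (numpy 2.4.6). The p is fixed at 0.1 where the groups do not overlap, so it adds nothing for pairs picked by that.

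The members and gene lists were chosen with earlier results of these data known. Named were antisense RNAs that passed in limma, the 8 highest and 8 lowest whose groups did not overlap, the 6 most abundant, 19 of 20 listed by name that were in the table, and their sense genes. Others are named with the reason. Some antisense RNAs that this rule names are not reported here. Positions, transcripts and layouts are from GENCODE v44 on GRCh38, matched by Ensembl identifier, while reads were counted on hg19, and no coordinates were converted.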

Additional observations from a re-analysis of the deposited data

How the results depend on the processing

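The median log2 fold change of antisense RNAs and the median difference from the sense gene moved by less than the SD of their replicate medians (0.618 and 0.653) under every alternative run. These SDs are wide, and without ORC1 IP 1 or 3 the first turned positive (0.15 and 0.17), as it did in edgeR (0.12) and DESeq2 (0.10), with TMM scaling (0.02) and with a filter at 50 (0.06). The number of antisense RNAs called higher, 1, was 2 with no filter (HYI-AS1, at 0 in every input, was added), 4 in DESeq2, 0 with total count scaling, without the trend and among those with under 10% of exon bases under opposite exons (chosen after seeing the data), 0 to 1 when 1 library was left out, and 0 with the replicate block in limma and in edgeR. The block, with pairs from the labels, changed no other call of a named antisense RNA. The number called lower, 0, was 1 in DESeq2 and 0 to 6 when 1 library was left out. Of all genes, 376 were higher and 234 lower. Total count scaling gave 87 and 96, limma without trend 143 and 96, DESeq2 1266 and 718, and leaving out 1 library 6 to 1965 and 23 to 1053. The causes were not tested. C1RL-AS1 lost its call with total count scaling (limma adjusted p = 0.162), which moved the median of all genes to -0.19, and without the trend (0.0717).

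Log2 fold changes near 0 changed sign for some named antisense RNAs. In edgeR and DESeq2 these were EPB41L4A-AS1 (0.17 and 0.14), HOXA-AS2 (0.24 and 0.22), SBF2-AS1 (0.28 and 0.24) and ZEB1-AS1 (0.27 and 0.23), and with total count scaling FAM83H-AS1 (-0.14) and PAX8-AS1 (-0.0032). With 1 library left out, the range was -0.53 to 0.44 for EPB41L4A-AS1, -0.030 to 0.28 for FAM83H-AS1, -0.11 to 0.98 for FGD5-AS1, -0.68 to 0.35 for HOXA-AS2, -0.77 to 0.043 for MAPKAPK5-AS1, -1.01 to 0.18 for SBF2-AS1, -0.47 to 0.11 for TTN-AS1 and -0.89 to 0.36 for ZEB1-AS1. With a median of 29 reads over 6 libraries, changes of the 189 untested antisense RNAs were not detectable unless large.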
